A study of Mus musculus with 28 samples.

Results

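Some acetylated stretches of chromatin in mouse lung tumours had no called peak, in the files used to choose them, of the H3K4 methylation marks that usually accompany acetylation. The deposited data are peak lists from ChIP-seq, the sequencing of DNA pulled down with an antibody against a single histone modification. A region was a stretch of chromosomes 1 to 19 covered by H3K27ac peaks in both deposited files with the tag RAS, with gaps of up to 1 kb closed and a length of 200 to 14999 bp. It counted as H3K4me-negative when no H3K4me1 peak of either RAS file touched it and no H3K4me3 peak of any of the 4 H3K4me3 files lay within 1 kb. The regions were therefore chosen by the H3K27ac, H3K4me1 and H3K4me3 peaks themselves. Of 25327 H3K27ac regions, 2371 (9.36%) met the rule. They covered 3.25 Mb, which is 0.131% of the span of these chromosomes. The name H3K4me-negative refers to called peaks in the files of the rule. Of the 2371, 365 (15.4%) had an H3K4me1 peak in a file with the tag MLL. Another 12371 regions (48.8%) had H3K4me1 and no H3K4me3 within 1 kb and are called H3K4me1 regions. The remaining 10585 (41.8%) lay within 1 kb of H3K4me3 and are called H3K4me3 regions.

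Acetylation of lysine 27 of histone H3 (H3K27ac) is deposited by the acetyltransferases p300 and CBP at active enhancers and promoters. H3K4me1 is placed at enhancers mainly by the methyltransferases MLL3 and MLL4 (also named KMT2C and KMT2D), and H3K4me3 marks the start sites of active and poised genes. H3K79me2 is written by DOT1L along the transcribed part of genes near their start. H3K27me3, written by the Polycomb enzyme EZH2, and H3K9me3 mark repressed chromatin.

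The series mapped 6 marks with 4 libraries each in mouse lung tumour tissue. One genotype was K-RasLSL-G12D, and the other was K-RasLSL-G12D;Mll4fl/fl. Tumours were induced with Ad-CMV-Cre, an adenovirus whose CMV promoter is active in many cell types, so recombination is not limited to 1 cell type by design. In both genotypes Cre switches on the mutant K-Ras allele, and in the Mll4fl/fl genotype it is meant to delete also the floxed Mll4 alleles. The labels give 2 tumour types for the series but none for a single sample, and neither strain, age nor the number of mice is given. The tag RAS stands in the deposited names of replicates 3 and 4 and the tag MLL in those of replicates 1 and 2; the tags were used to apply the rule and to name libraries, not to test a genotype. The source is whole tumour tissue, so a smaller share of cells with a mark and less of the mark per cell cannot be told apart. The labels do not say whether replicates are separate mice, so spread and p-values cover the differences between these libraries, which may be technical.

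The peak lists held no read counts, so the depth of every library is unknown. The 4 H3K27ac libraries differed by tag: the RAS lists had median peak widths of 2051 and 1702 bp and covered 4.63% and 4.55% of the chromosomes, whereas the MLL lists had median widths of 233 and 216 bp and covered 0.806% and 0.894%. H3K27ac replicate 2 followed H3K79me2. Among H3K4me1 regions it touched 58.4% of those with H3K79me2 in all 4 libraries and 6.67% of those with none, while replicate 1 touched 53.1% and 43.2%. H3K4me3 replicate 1 was narrow (median width 263 bp), and without it the rule gave 2377 regions. H3K9me3 replicate 4 touched 9.69% of the H3K4me1 regions and 6.22% of the H3K4me3 regions, against at most 0.121% and 0.170% in the other 3 H3K9me3 libraries. Whether H3K27ac replicate 2 and H3K9me3 replicate 4 report the mark of their label was not tested. Counts that turn on these libraries are given per library, or with and without them.

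The H3K4me-negative regions were short and weakly scored, which describes the values that chose them and was not tested. Their median width was 1076 bp (quartiles 817 and 1628 bp), against 2333 bp for H3K4me1 regions and 2287 bp for H3K4me3 regions. The longest measured 11630 bp, and 48 were 4 kb or longer. The authors' score of the best overlapping H3K27ac peak had a median of 148 in replicate 3 and 122 in replicate 4. The medians were 322 and 341 in H3K4me1 regions and 632 and 468 in H3K4me3 regions. To place the libraries on a common footing, each score was ranked within its own file as a percentile, and the lower of the pair was taken for each region. Its median was 23.5 in H3K4me-negative regions, 50.3 in H3K4me1 regions and 67.3 in H3K4me3 regions, so most H3K4me-negative regions ranked at or below percentile 25 in at least 1 file (1249 of 2371, 52.7%).

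**Figure D1:**
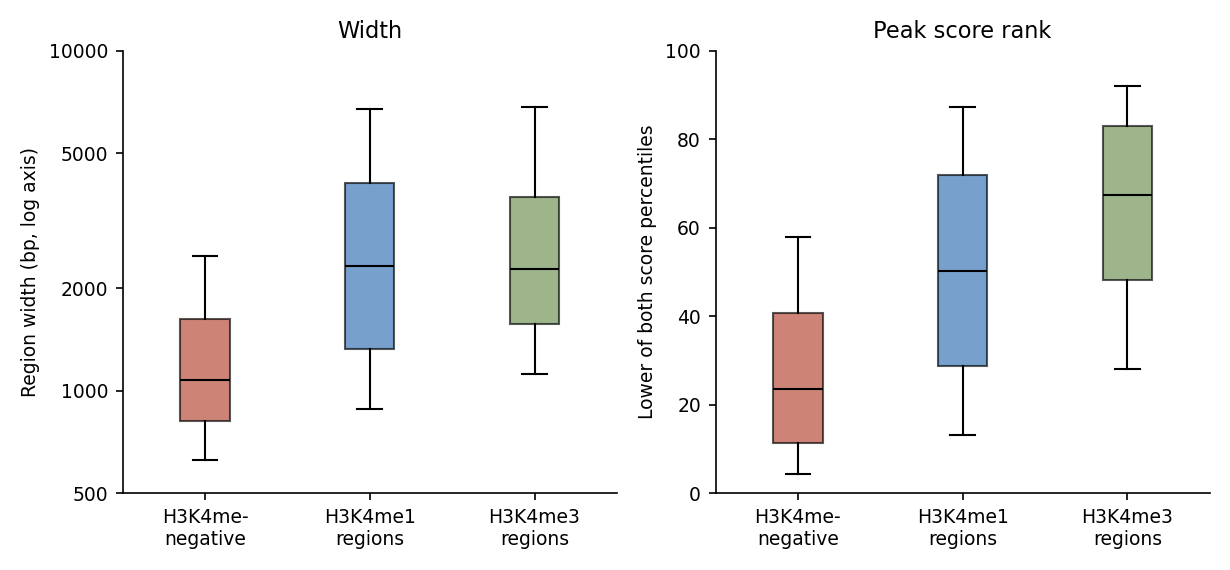
Width in bp on a log axis (left) and the lower of both score percentiles (right) of H3K27ac regions by class. Lines mark the median, boxes the quartiles and whiskers the 10th and 90th percentiles; H3K4me-negative regions have the lowest median in both panels (1076 bp and 23.5).

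Weak H3K27ac regions were H3K4me-negative more often than strong ones. It was 26.6% (1249 of 4698) where the lower percentile was at most 25, 12.0% between 25 and 50, 4.25% between 50 and 75 and 0.722% (49 of 6784) above 75. By width it was 33.5% under 800 bp and 0.847% at 4 kb or more. A longer region offers more bases for an H3K4me1 peak to touch, and width and score were not separated here.

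Both RAS files ranked the same H3K4me-negative region less alike than regions of the other classes. Spearman's rho between the percentiles of replicates 3 and 4 was 0.276 over the 2371 regions, 0.623 over H3K4me1 regions and 0.809 over H3K4me3 regions, a description over regions that share libraries and, in the H3K4me-negative class, a narrow range of scores. Both percentiles exceeded 50 in 371 H3K4me-negative regions (15.6%), against 50.4% of H3K4me1 and 73.3% of H3K4me3 regions. Both exceeded 90 in 5. The rule itself required cover in both files, and 2091 regions (88.2%) held no closed gap, against 69.9% of H3K4me1 and 82.7% of H3K4me3 regions.

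Few regions lay at the limits of the rule, and their values are given without a test. For 87 H3K4me-negative regions the nearest RAS H3K4me1 peak began within 100 bp of the edge. Their median width was 967 bp, their median scores were 127 and 112, and H3K27ac replicate 1 touched 10.3% of them. Just outside the rule, 106 regions had at most 100 bp under an H3K4me1 peak. Their median width was 853 bp, their median scores were 119 and 88.6, and replicate 1 touched 19.8%. H3K79me2 in at least 1 library was alike on both sides of this limit, at 19.5% of the 87 and 20.8% of the 106. Over the whole classes it was 12.2% of H3K4me-negative and 38.6% of H3K4me1 regions. At the H3K4me3 margin, 22 regions inside had their nearest peak between 1 and 1.5 kb away (median width 1034 bp, scores 169 and 97.8), with replicate 1 in 22.7%. Outside were 12 regions without RAS H3K4me1 whose nearest H3K4me3 peak was between 0.5 and 1 kb away (967 bp, scores 92.3 and 156), with replicate 1 in 8.33%. At the shortest lengths, 25 regions measured 200 to 300 bp, and 28 intervals of 100 bp to under 200 bp were left out.

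The rule removed every region touched by a RAS H3K4me1 peak, so distances to these peaks in part describe the rule. The median distance to the nearest RAS H3K4me1 peak was 4407 bp; 479 regions (20.2%) had one within 1 kb, 1256 (53.0%) within 5 kb and 2262 (95.4%) within 50 kb. The shares of H3K4me3 regions at the same distances were 83.1%, 87.6% and 97.7%. The rule let H3K4me3 regions touch a RAS H3K4me1 peak, and 70.5% did, so the comparison is not like for like. No expectation for random positions was computed. The nearest H3K4me3 peak of any of the 4 files was farther, at a median of 27251 bp, against 22900 bp for H3K4me1 regions, and 262 regions (11.1%) had one within 5 kb. The next H3K27ac region lay at a median of 6238 bp, against 5102 bp for H3K4me1 regions. For 418 regions (17.6%) that neighbour was itself H3K4me-negative, where this class made up 9.36% of all regions. It was an H3K4me1 region for 1259 (53.1%) and an H3K4me3 region for 694 (29.3%). These distances involve marks the rule used and are descriptive.

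H3K79me2, which the rule did not use, touched few H3K4me-negative regions. Replicates 1 to 4 touched 200 (8.44%), 205 (8.65%), 192 (8.10%) and 168 (7.09%) of the 2371, a mean of 8.07% ± 0.692 (SD, n = 4). H3K4me1 regions were touched in 28.3%, 30.0%, 31.7% and 30.1% (mean 30.0% ± 1.39, SD, n = 4). H3K4me3 regions reached 63.2% ± 3.33 (SD, n = 4). The ranges of the 3 classes did not overlap. The difference from H3K4me1 regions was -22.0 ± 1.7 percentage points (SD, n = 4) and negative in 4 of 4 libraries, and that from H3K4me3 regions was -55.1 ± 2.77 points. An exact two-sided sign-flip test over the 4 libraries gave p = 0.125 for each, the smallest its 16 sign patterns allow, and 0.156 after Benjamini-Hochberg adjustment over 5 tests, so this design could not reach 0.05.

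Counted by bases, H3K4me-negative regions carried about as much H3K79me2 as the chromosomes as a whole. The mark covered 6.02%, 5.86%, 5.43% and 4.20% of their bases in replicates 1 to 4 and 5.66%, 6.24%, 5.73% and 4.63% of chromosomes 1 to 19. The ratios were 1.06, 0.939, 0.947 and 0.908. H3K4me1 regions, in the same libraries, had 21.4% to 23.7% of their bases covered.

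**Figure D2:**
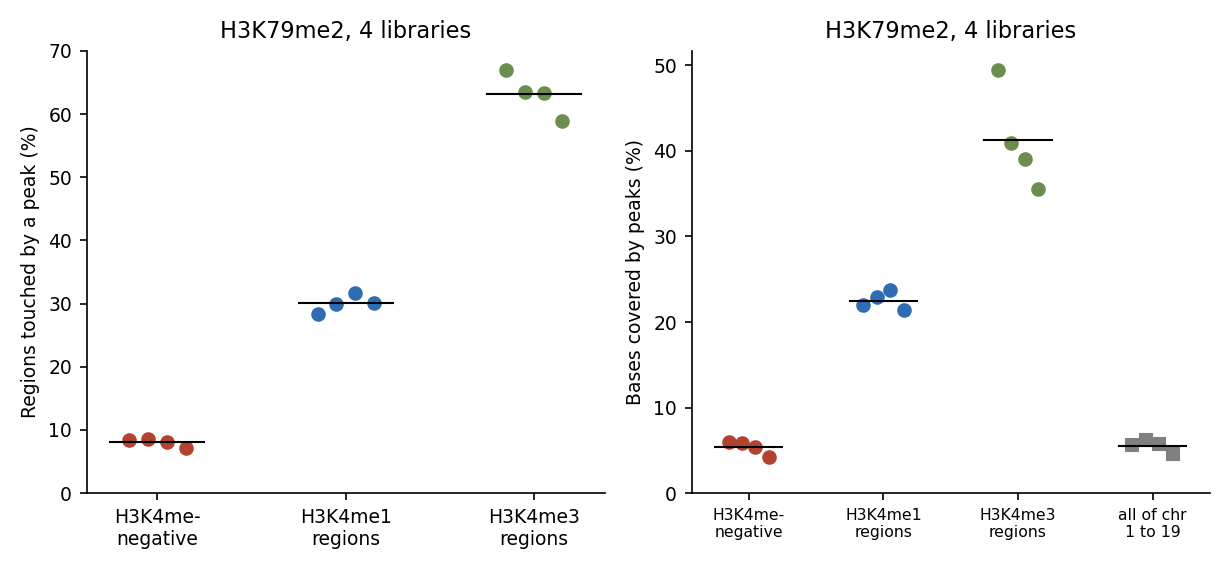
Percentage of regions touched by an H3K79me2 peak (left) and percentage of bases covered (right); each point is 1 of 4 libraries, replicates 1 to 4 from left to right, and lines mark means. H3K4me-negative regions sit at 7.09% to 8.65% of regions touched, and the covered share of their bases lies beside that of all bases of chromosomes 1 to 19 (grey squares).

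H3K79me2 was seen in a minority of the regions, and in part of those in a single library. Of the H3K4me-negative regions, 289 (12.2%) had a peak in at least 1 library, where 51.5% of all H3K27ac regions did. There were 101 (4.26%) with one in 4 of 4, where 30.6% of all had one. Another 78 (3.29%) had one in 1 library only, as did 4.88% of H3K4me1 and 7.61% of H3K4me3 regions. Of the H3K4me1 regions, 4773 had it in at least 1 library and 2437 in 4 of 4. In 39 of these 101, every base lay under H3K79me2 in all 4 libraries, as in 660 of 2437 H3K4me1 regions, which are longer. The 101 regions were as short as the rest (median 947 bp) and had median H3K27ac scores of 124 and 87.9. They lay at a median of 15000 bp from H3K4me3, against 29022 bp for the 2082 regions without any H3K79me2 peak; the H3K4me1 regions showed the same order (12791 and 28856 bp). Without H3K79me2 the median width was 1091 bp and the median scores were 152 and 126.

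The difference in H3K79me2 from H3K4me1 regions was also present within bins of score and width, while that from H3K4me3 regions was smaller among weak regions. Where the lower score percentile was at most 25, H3K79me2 touched 10.2% ± 0.582 of the 1249 H3K4me-negative regions and 31.5% ± 1.74 of the 2567 H3K4me1 regions (SD, n = 4 libraries). In the next 3 score bins the H3K4me-negative share was 6.32% ± 1.01, 4.58% ± 0.640 and 2.55% ± 1.02, the last over 49 regions above percentile 75. The share of H3K4me1 regions stayed between 28.3% and 31.5%. Among regions under 800 bp the values were 11.2% ± 1.29 and 37.0% ± 2.30, and from 2 to under 4 kb they were 6.29% ± 0.830 and 26.6% ± 1.12. H3K4me3 regions had 28.1% ± 5.31 in the lowest score bin and 26.8% ± 4.35 under 800 bp. In the lowest score bin the difference from them was -17.9 ± 4.84 points, against -55.1 over all scores. When the peak had to cover the midpoint of the region, the difference from H3K4me3 regions was -31.9 points. The values above percentile 75 rest on 1, 2, 1 and 1 touched regions in replicates 1 to 4, and their range (2.04% to 4.08%) overlapped that of the bin below (4.04% to 5.28%). At 4 kb or more the value was 4.17% ± 3.8 over 48 regions, a spread nearly as large as the mean. The order over score bins was not tested.

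**Figure D3:**
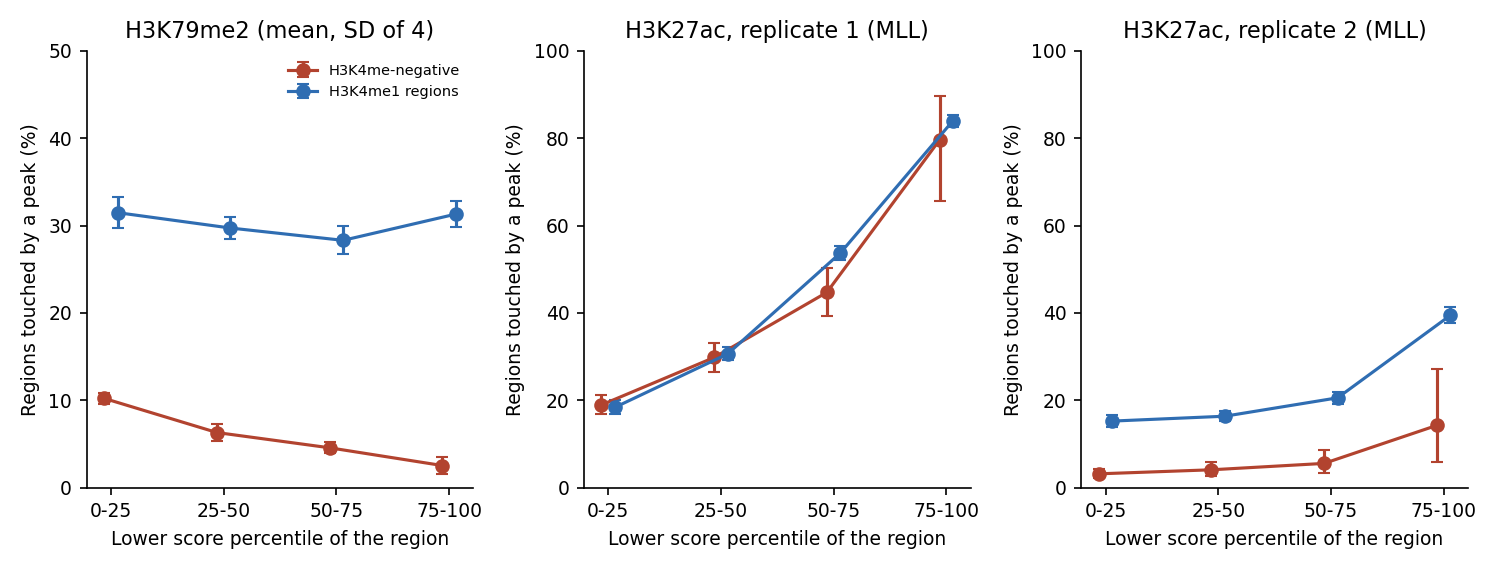
Percentage of regions touched by H3K79me2 (mean and SD of 4 libraries, left) and by the H3K27ac peaks of MLL replicates 1 and 2 (exact 95% intervals, middle and right), against the lower score percentile of the region. H3K4me-negative regions range from 10.2% in the lowest bin to 2.55% in the highest for H3K79me2, and lie close to H3K4me1 regions for replicate 1 and below them for replicate 2.

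H3K79me2 was also lower farther from H3K4 methylation. Regions less than 1 kb from a RAS H3K4me1 peak were touched in 15.4% ± 1.55 of 479 cases, and those 1 to 5 kb away in 11.1% ± 0.948 of 777 (SD, n = 4 libraries). At 5 to 20 kb the value was 3.75% ± 0.530 of 801, and at 20 kb or more it was 0.318% ± 0.368 of 314. The ranges of the 4 libraries did not overlap between neighbouring bins. Median H3K27ac scores were 166 and 144 at 20 kb or more and 126 and 104 under 1 kb, and score and distance were not separated. By distance to H3K4me3 the shares of H3K4me-negative regions ran from 12.9% ± 1.26 at 1 to 5 kb to 4.61% ± 1.07 beyond 50 kb. H3K4me1 regions went from 44.1% ± 0.762 to 15.6% ± 0.602 over the same distances, above the H3K4me-negative regions in each bin.

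**Figure D4:**
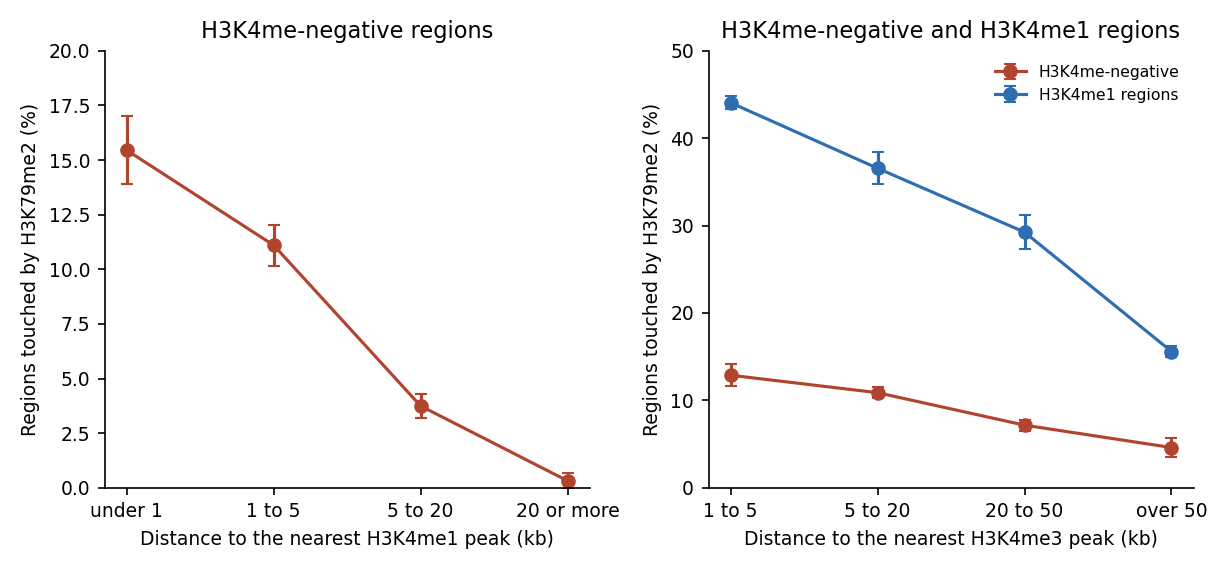
Percentage of regions touched by H3K79me2 (mean and SD of 4 libraries) against the distance in kb to the nearest RAS H3K4me1 peak (left, H3K4me-negative regions) and to the nearest H3K4me3 peak (right, with H3K4me1 regions for comparison). The share of H3K4me-negative regions is 15.4% in the nearest bin to H3K4me1 and 0.318% in the farthest.

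Repressive marks were rare. H3K27me3 peaks of replicates 1 to 4 touched 4, 12, 43 and 11 H3K4me-negative regions (0.169%, 0.506%, 1.81% and 0.464%), and 49 regions (2.07%) had one in at least 1 library, where 3.00% of all H3K27ac regions did. The difference from H3K4me1 regions was +0.314 ± 0.395 percentage points (SD, n = 4), less than its spread, although positive in 4 of 4 libraries. The exact two-sided sign-flip test gave p = 0.125, the smallest it allows, and 0.156 after adjustment. It was -0.0191 points when only H3K27ac peaks at or above the median score of their file were used, 0.000429 points among regions at or below percentile 25, and 0.129 points without replicate 3. H3K9me3 touched 1, 2, 0 and 10 regions, and 12 (0.506%) had a peak in at least 1 library, where 7.45% of all H3K27ac regions did. Without replicate 4 these were 3 regions (0.127%) and 0.225% of all. The difference from H3K4me1 regions was -2.35 ± 4.61 points (exact two-sided sign-flip p = 0.25, adjusted 0.25), and without replicate 4 it was -0.0440 points.

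Relative to the whole chromosomes, H3K27me3 covered a smaller share of H3K4me-negative bases in 4 of 4 libraries, and H3K79me2 a share close to that of the chromosomes. The covered share of their bases divided by the covered share of the chromosomes was 0.0584, 0.179, 0.297 and 0.142 for H3K27me3. It was lower still in H3K4me1 regions (0.0129 to 0.0917) and higher in H3K4me3 regions (0.255 to 0.507), so a low H3K27me3 cover was shared by all 3 classes. On the log2 scale the mean ratio was -0.05 for H3K79me2 and -2.79 for H3K27me3. The difference of 2.73 was positive for 4 of 4 replicate numbers. An exact two-sided permutation test over 70 splits gave p = 0.0286, the smallest possible. After adjustment over the 5 tests this was 0.143, and with so few libraries it could not pass 0.05.

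The MLL H3K27ac lists, which the rule did not use, contained part of the regions. Replicate 1 had a peak in 644 of 2371 (27.2%, exact 95% interval 25.4% to 29.0%), where 59.2% of all H3K27ac regions had one. Replicate 2 had a peak in 96 (4.05%, 3.29% to 4.92%), where 30.1% of all did. Both had one in 42 (1.77%, where 25.4% of all did), and neither had one in 1673 (70.6%, where 36.2% of all did). Of H3K4me1 regions alone, 15.4% had one in both and 46.6% in neither. These intervals cover counting error only, and with 2 libraries of narrow peaks no test was made. Since the libraries differ in peak width and coverage as well as in tag, absence from the MLL lists cannot be told apart from weaker detection. Where replicate 1 had a peak, it covered a median of 248 bp, or 19.2% of the region.

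In replicate 1, the shares of H3K4me-negative and H3K4me1 regions lay closer within score bins than over all regions. At a lower percentile of at most 25 the shares were 19% (16.8% to 21.3%) and 18.4% (16.9% to 20.0%). From 25 to 50 they were 29.8% and 30.6%, from 50 to 75 they were 44.7% (39.2% to 50.3%) and 53.7% (52.1% to 55.4%), and above 75 they were 79.6% (65.7% to 89.8%) and 84.0% (82.6% to 85.4%). In 3 of the 4 bins the intervals overlapped, and in the bin from 50 to 75 the H3K4me-negative share was lower. The intervals cover counting error within 1 library, so overlap does not show equal shares. By width the shares were 15% and 13.2% under 800 bp, 21.8% and 19% from 800 bp to under 1200 bp, 32.7% and 31.6% from there to under 2 kb, and 79.2% and 79.3% at 4 kb or more. From 2 to under 4 kb they were 41.9% (36.7% to 47.3%) and 48.9% (47.3% to 50.5%), so that here too the H3K4me-negative share was lower. H3K4me3 regions were touched more often than either class in each score bin, from 37.5% in the lowest to 97.1% in the highest. Over all regions the shares were 27.2% and 46.4%. H3K4me-negative regions were also weaker and shorter, and whether this accounts for the difference was not tested.

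Replicate 2, whose peaks followed H3K79me2 and whose mark was not tested, gave other values. In the 4 score bins it touched 3.20%, 4.13%, 5.59% and 14.3% of H3K4me-negative regions and 15.3%, 16.4%, 20.6% and 39.5% of H3K4me1 regions. The intervals, which cover counting error within 1 library, did not overlap in any bin. Its peaks in H3K4me-negative regions went with H3K79me2: it touched 32 of the 101 regions with H3K79me2 in 4 of 4 libraries (31.7%, 22.8% to 41.7%) and 44 of the 2082 without any (2.11%, 1.54% to 2.83%). Replicate 1 touched 31.7% and 26.5% of the same sets.

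H3K4me1 peaks appeared in some of the regions in the MLL files, which the rule left out. Replicate 1 had one in 158 (6.66%, where 38.4% of all H3K27ac regions did) and replicate 2 in 266 (11.2%, where 53.0% did). Either had one in 365 (15.4%, where 58.8% of all did). Both had one in 59 (2.49%), where 30.1% of H3K4me1 and 42.2% of H3K4me3 regions did. H3K4me1 regions, which carried the mark in a RAS file by definition, showed it in 35.1% and 54.3%. The remaining 2006 H3K4me-negative regions (84.6%) had no H3K4me1 peak in any of the 4 files. The rule fixes the absence of RAS H3K4me1 and of H3K4me3; in 1759 regions (74.2%) no peak of H3K79me2, H3K27me3, H3K9me3 or MLL H3K4me1 was present either, where 27.5% of all H3K27ac regions lacked these. Without H3K9me3 replicate 4 the values were 1766 regions (74.5%) and 28.1% of all.

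The 365 regions with H3K4me1 in an MLL file differed from the rest in other marks. H3K27ac replicate 1 touched 47.7% of them and 23.4% of the 2006 others. H3K79me2 was present in at least 1 library in 24.9% and 9.87%. The other classes, split in the same way, showed the same order. Replicate 1 touched 59.0% and 28.1% of H3K4me1 regions and 86.8% and 69.9% of H3K4me3 regions. H3K79me2 was present in 51.2% and 20.3%, and in 85.6% and 53.7%. The median distance of the 365 to RAS H3K4me1 was 4.20 kb, close to the 4.53 kb of the other H3K4me-negative regions. These contrasts are between sets of regions in the same libraries and were not tested. By H3K27ac score, MLL replicate 1 had H3K4me1 in 6.65% of H3K4me-negative regions at or below percentile 25 and in 8.16% (2.27% to 19.6%) of the 49 above 75. Replicate 2 had it in 9.37% and 20.4% (10.2% to 34.3%), against 39.2% and 70.7% of H3K4me1 regions in the same bins. H3K4me-negative regions were below H3K4me1 regions in every score bin in both libraries.

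The strongest and longest regions are named by their positions in mm9. The highest lower percentile belonged to chr13:105352482-105363463, 10982 bp long, with H3K27ac scores of 3100 and 2729.9. It had 333 bp of H3K27ac peak in MLL replicate 1 and 324 bp in replicate 2, its nearest RAS H3K4me1 peak was 7.30 kb away, and no H3K79me2, H3K27me3 or H3K9me3 peak touched it. It was followed by chr1:140102650-140109419 (6770 bp, scores 1994 and 1821), chr16:22916912-22922936 (6025 bp, 1766 and 2609.6) and chr13:44502975-44507702 (4728 bp, 1732 and 1452). Each of these was present in MLL replicate 1 (530, 168 and 582 bp), absent from replicate 2, and free of H3K79me2 in all 4 libraries. The fifth, chr13:110028458-110035017, lay 10 bp from a RAS H3K4me1 peak and so just inside the rule.

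The longest region, chr2:76922445-76934074 (11630 bp, scores 2604 and 1234.5), ranked sixth by score and had 1722 bp of H3K79me2 in replicate 3 alone. Another 2 of the 4 longest were chr11:64080384-64087838 (7455 bp), which had 1286 bp of H3K27ac in MLL replicate 1 and its nearest RAS H3K4me1 peak 162 kb away, and chr2:174477024-174484337 (7314 bp). Among the 20 regions with the highest lower percentile, 18 had no H3K79me2 in any library, as did 87.8% of all H3K4me-negative regions and 48.5% of all H3K27ac regions. H3K27ac of MLL replicate 1 was present in 17 and that of replicate 2 in 3, where 59.2% and 30.1% of all H3K27ac regions had it and, above percentile 75, 84.0% and 39.5% of H3K4me1 regions.

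Regions present in both MLL H3K27ac lists were led, after the first region above, by chr4:133375557-133378368 (2812 bp), in which the peaks covered 1344 and 346 bp. It also held short H3K4me1 peaks of 185 and 157 bp in the MLL replicates, without H3K79me2. Next came chr12:118056562-118060829 (167 and 319 bp) and chr1:31104831-31110617 (386 and 148 bp). Regions with H3K79me2 in 4 of 4 libraries were led by chr9:53195870-53199249, where the peaks covered 2095, 1639, 1297 and 560 of 3380 bp, and chr4:148193348-148195621, where they covered 2274, 2274, 1983 and 1253 of 2274 bp. Then followed chr6:134895670-134897923 and chr6:54896150-54899543, neither of which had H3K27ac in an MLL list. In all 4 of these regions the shortest coverage was that of replicate 4, which had the narrowest H3K79me2 peaks (median 1100 bp).

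H3K27me3 or H3K9me3 in at least 2 libraries was found in 14 regions (0.590%), where 1.16% of all H3K27ac regions had it. The share was 0.461% of H3K4me1 regions and 2.10% of H3K4me3 regions. Without H3K9me3 replicate 4 it was 0.396% of H3K4me1 regions and 1.07% of all, and 13 H3K4me-negative regions (0.548%) remained. Of the 4 with the highest lower percentile, chr14:48750376-48753752 had 2078 and 1504 bp of H3K27me3 in replicates 3 and 4, and H3K4me1 in both MLL replicates (760 and 521 bp). In chr7:89007079-89008236 H3K27me3 covered 665, 1158 and 466 of 1158 bp in replicates 2, 3 and 4. The others were chr7:31178174-31179441 and chr2:167421154-167423447. All 4 had H3K27ac in MLL replicate 1 (548 to 1670 bp), where 27.2% of all H3K4me-negative and 59.2% of all H3K27ac regions did. The 4 were picked by H3K27ac score, with which that presence rose.

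H3K4me-negative regions were found on every chromosome from 1 to 19, at unequal shares. Their share of H3K27ac regions was highest on chromosome 10 (194 of 1297, 15%, exact 95% interval 13.1% to 17.0%) and lowest on chromosome 15 (58 of 1175, 4.94%, 3.77% to 6.33%). The share went with the density of H3K4me1 calls, which the rule used, though not in strict order. The RAS files held 1.81 H3K4me1 peaks per H3K27ac peak on chromosome 10, the lowest of the 19, and 2.53 on chromosome 15. Chromosome 18 had the highest ratio, 2.75, with a share of 7.52%. Over 19 chromosomes, Spearman's rho between share and ratio was -0.802 and Pearson's r was -0.843, a description of points that share the same libraries and the same H3K4me1 peaks.

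Within the RAS pair, whole chromosomes differed in H3K27ac score balance. On chromosome 15 the median log2 score of replicate 3 over replicate 4 was -0.48 in H3K4me-negative regions, -1.16 in H3K4me1 regions and -0.31 in H3K4me3 regions. On chromosome 16 it was 0.78, 0.73 and 0.91. Over all chromosomes together it was 0.18, -0.04 and 0.40. On chromosome 15 replicate 3 also had fewer H3K4me1 peaks (3777 against 5889 in replicate 4), and on chromosome 16 it had more (4642 against 3217). Because a region had to be covered in both files, the weaker library of such a chromosome limits which regions were kept; its part in the chromosome shares was not tested.

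**Figure D5:**
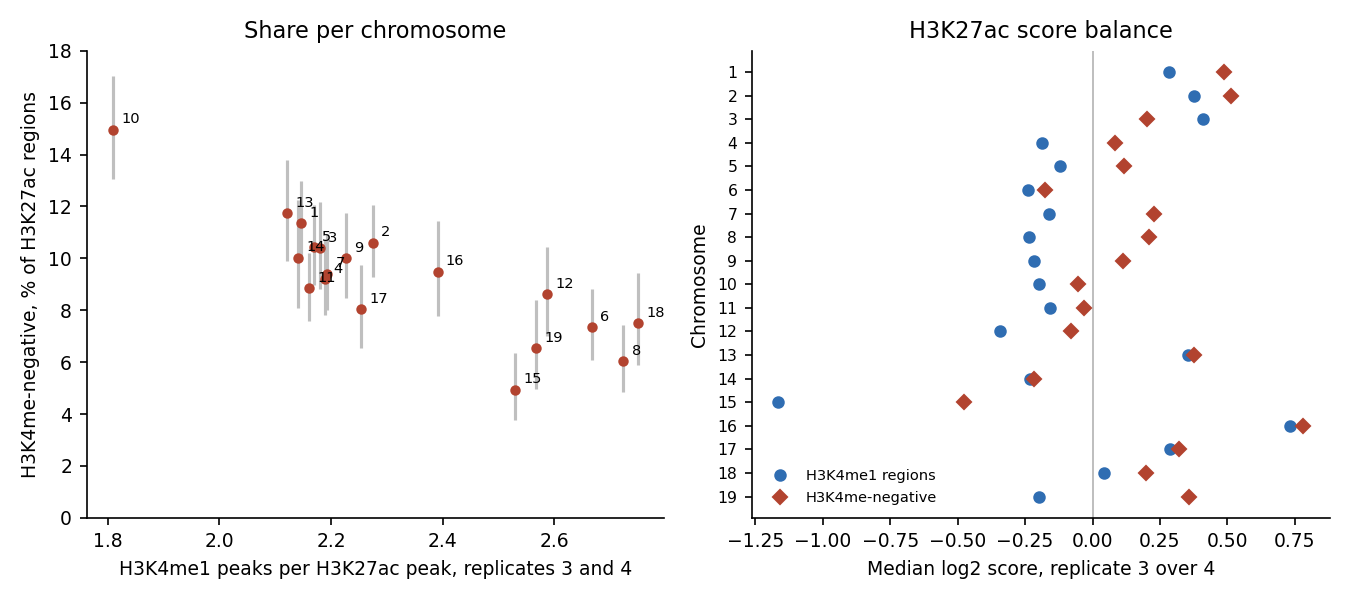
Left, H3K4me-negative share of H3K27ac regions per chromosome (points, labelled by chromosome number, with exact 95% intervals) against H3K4me1 peaks per H3K27ac peak in the RAS files; chromosome 10 has the highest share (15%) and the lowest ratio. Right, median log2 score of replicate 3 over replicate 4 per chromosome, with chromosome 15 lowest and chromosome 16 highest in both classes shown.

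The spread over smaller windows is given as counts; no expectation for an even spread was computed, and H3K27ac regions themselves are unevenly spaced. Of 1839 windows of 1 Mb with an H3K27ac region, 1062 held at least 1 H3K4me-negative region, 456 held exactly 1 and 97 held 5 or more. The fullest windows, chosen after their values were seen, were chromosome 10 from 95 to 96 Mb with 16 of 37 regions and chromosome 13 from 37 to 38 Mb with 12 of 35. From 94 to 99 Mb on chromosome 10, 41 of 135 regions (30.4%) were H3K4me-negative, against 153 of 1162 (13.2%) on the rest of that chromosome. The stretch holds the fullest window, so its higher share follows in part from that choice. In this stretch 16 of the 41 had H3K27ac in MLL replicate 1 (27.2% of all H3K4me-negative regions did) and 1 had H3K79me2 in any library (12.2% did).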

How the data were processed

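ChIP-seq peaks of 6 histone marks were analysed, 1 deposited list for each of 24 libraries; the 4 input samples were not analysed here. The submitters' processing notes name CASAVA 1.7, Bowtie, MACS, deepTools and the mm9 build; caller settings and the use of inputs as control are not given in the sources used here. Each deposited peak has a score given by the authors (50 to 3233.1 over all lists), on a scale that is not stated; it was used only to rank and filter peaks within a file. Titles gave the mark of each library, and the 4 libraries of a mark formed a group.

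Shared regions, overlaps (at least 1 bp), distances and base coverage were computed with Python 3.11.15 and numpy 2.4.6 on merged peaks, and the interval steps were tested on simulated data. Classes were compared over the 4 libraries of a mark with exact two-sided sign-flip or permutation tests, adjusted by Benjamini-Hochberg over 5 tests; single shares have exact Clopper-Pearson 95% intervals, which cover counting error only. Alternatives were gap closing, minimum length, margins, score filter, overlap definition, the replicate block and leaving out each replicate; dropping H3K4me3 replicate 1 and using weak regions alone were added after seeing the data. Regions named were the 6 with the highest lower percentile, the 4 longest, and the first 4 by percentile with both MLL H3K27ac peaks, with H3K79me2 in 4 of 4 or in 0 of 4 libraries, and with repressive marks in at least 2 libraries. The regions, classes and rules were chosen with earlier results of these data known. Gene names and sequences in mm9 were not used here, and positions count from 1.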

Additional observations from a re-analysis of the deposited data

Results flagged for a closer look

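Of 12 sets of 4 values examined, 1 value per library, 2 held a library far from the rest, and both were H3K9me3 replicate 4: its share of H3K4me1 regions and the class difference computed from that share. It touched 9.69% of H3K4me1 regions, where replicates 1, 2 and 3 touched 0.121%, 0.0808% and 0.0566%. Outside the sets examined, it also touched 6.22% of H3K4me3 regions, where the other 3 touched 0.161% to 0.170%. The difference between H3K4me-negative and H3K4me1 regions was accordingly -9.27 percentage points in replicate 4, and its mean over the other 3 libraries was -0.0440. Chance alone puts about 1 in 20 such sets past this limit. In the H3K4me-negative regions themselves replicate 4 touched 10 regions, 0.422%.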

How the results depend on the processing

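The number of H3K4me-negative regions was 2371; it was 434 when only H3K27ac peaks at or above the median score of their file were used and 4570 when gaps were not closed, and the other 4 alternatives gave 2006 to 2377. H3K4me1 in the MLL files, a mean of 8.94% of regions, was 0.464% when 50% of the region had to be covered, 2.57% when its midpoint had to be covered, and 0 by construction when the rule required no H3K4me1 in any of the 4 files; single libraries gave 6.66% and 11.2%. H3K27ac in the MLL files, a mean of 15.6%, was 1.18% and 5.00% under the same 50% and midpoint requirements, and 4.05% and 27.2% in the single libraries. The H3K27me3 difference of +0.314 points became -0.0191 with the score filter (exact two-sided sign-flip p = 0.875); the cause was not tested. It was 0.000429 points among weak regions alone (exact p = 1). It ranged from 0.129 to 0.413 points when 1 library was left out.

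The H3K79me2 difference from H3K4me1 regions kept its sign under every alternative run, from -14.9 points (midpoint covered) to -25.7, and from -21.4 to -22.7 with 1 library left out. That from H3K4me3 regions ranged from -17.9 (weak regions alone) to -67.3, and from -54.0 to -56.2 with 1 library left out. With 1 library left out the H3K9me3 difference ranged from -3.14 to -0.0440 points, and the log2 contrast of H3K79me2 and H3K27me3 from 2.25 to 3.09. With the replicate number as a block that contrast was 2.73 (exact two-sided sign-flip p = 0.125); same-numbered deviations had the same sign in 1 of 4 numbers, and no label says that a number marks a shared animal. The midpoint, 50% and score-filter alternatives could not give this contrast, since a library covered none of the regions. No test passed an adjusted 0.05 in the main analysis or under these alternatives. Unknown depth limits every absence of a peak stated here.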
